A study of Homo sapiens with 18 samples.

Results

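The genes described here are 46 markers of dividing cells, 16 that act in S phase, when DNA is copied, and 30 that act in G2 and mitosis, when chromosomes condense and separate. They were chosen by symbol from a list set with earlier results of these data known. All 46 passed the low-count filter, among 14797 of the 35238 genes of the count table. The lowest was CCNE2 at a mean of 3.10 CPM, its counts scaled to a fixed library size. RNA was sequenced from HepG2 cells, an established human line derived from a liver tumour that grows continuously in culture. The series concerns ligands of LRH-1, a nuclear receptor of liver cells, and has 6 groups of 3 libraries. Of these, 2 received only a vehicle, DMSO or ethanol, at a concentration of 0.1%. Another 3 received 10 µM of a small molecule, called 6N, 10CA or 6N-10CA, and the last received 100 µM of the phospholipid DLPC, dilauroylphosphatidylcholine. All groups were treated in medium with charcoal-stripped serum, which is poor in steroids and other lipophilic ligands. The small molecules are compared with DMSO and DLPC with ethanol, a pairing taken from knowledge of the study, since the labels do not state it. The labels give neither the length of treatment nor whether replicates are separate cultures, and where they are not, the spread behind every p-value here is a technical one.

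Replication starts when the MCM2 to MCM7 helicase is loaded onto origins by CDC6 and CDT1 and is activated by CDC45 and the GINS complex. The genes of this machinery are transcribed before S phase by E2F factors. Mitotic genes peak later and carry a different promoter signature. In it the cell cycle genes homology region (CHR), read by the MuvB complex with B-MYB and FOXM1, lies beside CCAAT boxes. In a culture that is not synchronised, the RNA level of either group depends on the share of cells in that phase as well as on the RNA per cell, and bulk libraries cannot tell these apart.

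The promoters of the members are shown because the 2 groups, which are described apart below, also differ in these letters. RefSeq promoters of 300 bases, from 250 before to 50 after the start (GRCh38.p14), matched 13 of 16 S phase and 25 of 30 mitotic genes. They were searched on both strands for CHR (TTTGAA or TTCGAA), for CCAAT, and for E2F (TTTCCCGC, TTTGGCGC, TTTCGCGC or TTTGCCGC). At least 1 CHR was present in 19 of 25 mitotic genes (76%) and 2 of 13 S phase genes (15.4%), against 19.5% of the 27305 genes with a promoter. E2F letters were present in 10 of 13 S phase genes (76.9%) and 3 of 25 mitotic genes (12%), against 3.99% of all. CCAAT was common to both groups, in 10 of 13 (76.9%) and 21 of 25 (84%), against 39.7% of all, and CHR and CCAAT occurred together in 17 of the 25 mitotic genes (68%) against 7.85% of all. A match describes the letters only and does not show binding. Examples follow 5′ to 3′ on the gene's strand, each ending at the base before the RefSeq start except PLK1, with matches in capitals. The first 4 are mitotic genes, with CHR in capitals and CCAAT in all but PLK1. The shorter window of PLK1 leaves out a CCAAT match 73 bases before the start. Of the bases shown, 30 of PLK1, 26 of CDC20, 19 of E2F1 and 4 of PCNA lie in exons of GENCODE release 29. The last 3 are S phase genes, with E2F and CCAAT in capitals. In MKI67 a CHR and a CCAAT match share bases, and in MCM6 a pair of E2F matches overlap.
CDC20, chr1:43358856-43358980: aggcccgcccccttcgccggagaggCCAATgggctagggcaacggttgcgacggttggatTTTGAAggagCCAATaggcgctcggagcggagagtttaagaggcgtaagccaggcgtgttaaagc
KIF11, chr10:92593005-92593129: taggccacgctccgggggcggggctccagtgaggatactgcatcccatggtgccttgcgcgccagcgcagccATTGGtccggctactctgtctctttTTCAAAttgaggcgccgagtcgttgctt
MKI67, chr10:128126424-128126548: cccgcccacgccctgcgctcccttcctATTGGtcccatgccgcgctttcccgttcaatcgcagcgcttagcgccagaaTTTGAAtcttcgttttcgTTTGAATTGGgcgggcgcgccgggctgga
PLK1, chr16:23678844-23678873: cgttcccagcgccgcgTTTGAAttcgggga
E2F1, chr20:33686386-33686510: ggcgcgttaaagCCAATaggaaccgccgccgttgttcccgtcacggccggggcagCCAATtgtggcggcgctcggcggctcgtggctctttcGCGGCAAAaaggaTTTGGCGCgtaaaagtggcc
MCM6, chr2:135876444-135876568: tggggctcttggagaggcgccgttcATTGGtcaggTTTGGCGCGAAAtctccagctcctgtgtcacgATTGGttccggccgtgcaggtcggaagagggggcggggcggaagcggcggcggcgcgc
PCNA, chr20:5126623-5126747: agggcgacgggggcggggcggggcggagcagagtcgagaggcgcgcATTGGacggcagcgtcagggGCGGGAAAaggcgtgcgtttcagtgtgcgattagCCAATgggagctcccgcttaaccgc

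Total counts ran from 28135967 to 34992442 per library, and the 46 genes took 0.656 to 0.805% of them. A floor of 3 counts corresponds to 0.0857 to 0.107 CPM. All 10 hepatocyte markers were above 1 CPM in every library and summed to 54460 to 67860 CPM. Of 14 markers of stromal, endothelial and blood cells, KDR was at 0 in all 18 libraries, and 5 were above 1 CPM in every library, most of the sum of 291 to 445 CPM being LYZ (251 to 387 CPM). Whether libraries with the same replicate number deviated together from their group means depended on the genes looked at. A correlation above 0.1 was reached in 7 of the 24 same-numbered pairs compared over all 14797 genes, in 22 over genes above 1 CPM, and in 24 above 5 CPM and above 50 CPM. The set above 5 CPM was adopted after all 4 had been seen and with calls of the blocked fit known. On that basis the fit with the replicate number as a block is given beside the fit with group means alone, which remains the main one, wherever it changes the calls. By the check over all genes the numbers would not count as pairs, and every count given with the block rests on this choice.

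All 46 genes were expressed in every group, over a wide range of levels. Per kb of exon, the highest mean levels over the 18 libraries were those of CDC20, the activator of the anaphase-promoting complex, at 127 CPM per kb, and PCNA, the sliding clamp of DNA polymerases, at 122. CCNB1, the cyclin that drives entry into mitosis, followed at 119, the helicase subunit MCM3 at 110 and PLK1, the mitotic polo-like kinase, at 109. The lowest were the checkpoint kinase TTK at 4.51, the kinetochore motor CENPE at 1.95 and CCNE2, cyclin E2, at 0.705 CPM per kb. The median level was 33.8 CPM per kb for the S phase genes and 29.4 for the mitotic genes. Exons of 18 of the 46 overlap another gene, 14 of them on the opposite strand (PLK1, MCM2, MCM7, TYMS, CCNA2 and CCNE2 among them). Neither the counter nor the strandedness of the libraries is given in the sources used here. How reads from shared bases entered these levels is therefore not known. Pseudogenes named after members exist for 10 of the 46, CDC20, PCNA and AURKA among them, and RRM2 and TYMS are in both sets. CCNE2, at 3.10 CPM, shares exon sequence with INTS8 on the other strand, and its values are uncertain.

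**Figure D1:**
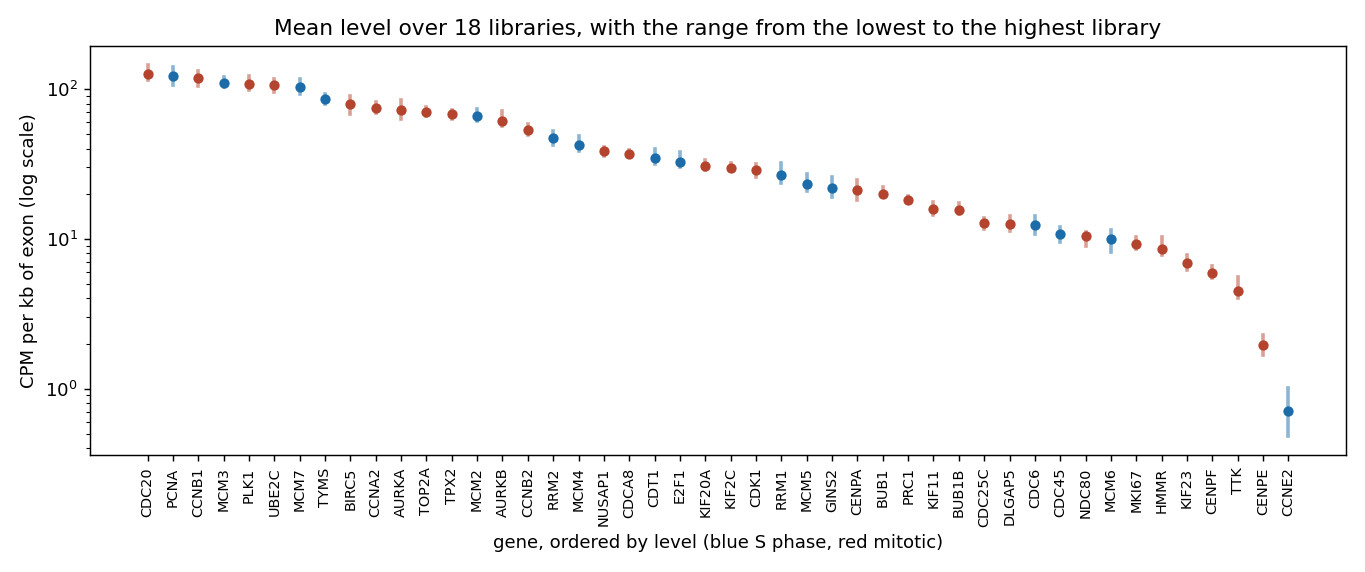
Mean CPM per kb of exon over the 18 libraries (log axis) for each gene, ordered by level, with a line from the lowest to the highest library, S phase genes in blue and mitotic genes in red. Levels run from 127 (CDC20) to 0.705 (CCNE2), and the 2 groups are interleaved.

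The ethanol and DMSO vehicles did not separate these genes. In edgeR's quasi-likelihood test none of the 46 was called between the vehicles (0% of all genes were), with the replicate block none either, in DESeq2 and limma-voom none, and 0 had an unadjusted p under 0.05 (3.24% of all genes did). The block called 0.122% of all genes. The median log2 fold change was 0.02 for the S phase genes and -0.02 for the mitotic genes. The median half-width of the members' 95% intervals was 0.12 on the log2 scale. These intervals are not adjusted for the number of genes tested, so a larger difference could still have missed a call.

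With 6N, all 46 genes had a higher fitted level than with DMSO, against 49.8% of all genes tested. The 46 are read from the same 6 libraries and are not independent of one another. The differences were small: the median log2 fold change was 0.10 for the S phase genes and 0.11 for the mitotic genes, where that of all genes was -0.0006. Without the block none of the 46 was called by edgeR after Benjamini-Hochberg adjustment (0.297% of all genes were called higher), and 19 had an unadjusted p under 0.05, all higher (4.06% of all genes). DESeq2 called 1 and limma-voom 0. With the replicate block 12 were called, all higher, where 1.34% of all genes were. These were 4 of the 16 S phase and 8 of the 30 mitotic genes. Leaving out any 1 of the 6 libraries brought that count to between 3 and 8. Without the block it gave medians of 0.0675 to 0.138 (S phase) and 0.0902 to 0.127 (mitotic). Library means of the S phase genes (log2, each gene centred over the 18 libraries) overlapped. They were 0.106, 0.163 and 0.0149 with 6N and -0.0357, 0.062 and -0.0795 with DMSO. Those of the mitotic genes did not overlap, at 0.059, 0.0945 and 0.0713 against -0.0386, 0.0131 and -0.048.

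Of the S phase genes, those called with the block were MCM2, MCM4 and MCM5 of the helicase and CDT1, which loads it. MCM2 was at 341, 361 and 334 CPM with 6N and at 305, 337 and 312 with DMSO. Each 6N library lay above the DMSO library of its number, but the groups overlapped. The log2 fold change of MCM2 was 0.12 ± 0.05 (SE), with an adjusted p of 0.398 in edgeR without the block and 0.0331 with it. The adjusted p ranged from 0.0331 to 0.776 over its 14 alternatives, of which only the block passed. CDT1 was at 132, 128 and 113 CPM with 6N and at 118, 109 and 108 with DMSO, a log2 fold change of 0.15 ± 0.07 (SE). Again the third 6N library lay within the DMSO range. MCM5 (188 ± 9.82 against 170 ± 14.1 CPM, mean ± SD, n = 3) and MCM4 (313 ± 20.4 against 289 ± 12.5) had log2 fold changes of 0.14 and 0.12. E2F1, the transcription factor of S phase genes, was the S phase gene whose libraries did not overlap: 87.8, 94.5 and 86.0 CPM with 6N against 80.2, 77.4 and 84.8 with DMSO. Its log2 fold change of 0.15 ± 0.05 (SE) did not pass in edgeR with the block either (adjusted p = 0.094, and 0.094 to 0.747 over 14 alternatives). TYMS, thymidylate synthase, and PCNA had log2 fold changes of 0.10 and 0.08 and did not pass. CCNE2 at 3.30 ± 0.99 against 2.67 ± 0.51 CPM (mean ± SD, n = 3) did not pass.

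The mitotic genes called with the block belong to several steps of division. CDK1, the kinase of mitotic entry, was at 117, 125 and 122 CPM with 6N and at 105, 109 and 105 with DMSO, without overlap. Its log2 fold change was 0.19 ± 0.06 (SE), the highest of the mitotic genes. Its partner CCNB1 was at 334, 340 and 321 CPM against 298, 320 and 293, with the groups just apart. AURKA, the centrosomal Aurora kinase, was at 227, 247 and 234 CPM with 6N and at 202, 224 and 210 with DMSO. The replicate numbers rank the AURKA libraries alike in both groups, and all 6N libraries lay above all DMSO libraries. The log2 fold change of AURKA was 0.16 ± 0.06 (SE), with an adjusted p of 0.408 in edgeR without the block and 0.00378 with it (0.00378 to 0.769 over 14 alternatives). Only the block passed among these alternatives. PRC1, which bundles microtubules at the spindle midzone, was the member nearest to a call without the block. It was at 105, 108 and 107 CPM against 97.7, 97.0 and 96.1, a log2 fold change of 0.14 ± 0.04 (SE) with an adjusted p of 0.0881 in edgeR. PLK1 (log2 fold change 0.10), CDC20 (0.13), the spindle factor TPX2 (0.11) and the microtubule-depolymerising kinesin KIF2C (0.13) were the other 4. TOP2A, the topoisomerase that untangles chromosomes, had a log2 fold change of 0.10 and did not pass. MKI67, the gene of the proliferation marker Ki-67, was the lowest of the 46 in log2 fold change: 122 ± 7.44 CPM with 6N against 121 ± 5.48 with DMSO (mean ± SD, n = 3), with a 95% interval of -0.12 to 0.15.

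The libraries of 6N lay wholly above those of DMSO for 14 members, 1 of S phase and 13 mitotic, where 6.26% of all genes did. In 39 of the 46 the 6N library lay above the DMSO library of the same number in all 3 pairs, which 16.6% of all genes did. Other genes of the cell cycle were taken from lists of 51 further S phase and 54 further mitotic genes. Their median log2 fold changes were 0.09 and 0.07, with 47 of 51 and 50 of 54 above 0. None was called without the block in edgeR, and with it 2 S phase genes and 0 mitotic genes were called, all higher, where 1.34% of all genes were. CHAF1A, a histone chaperone, was among the further S phase genes with the smallest p-values. On the mitotic side these belonged to SPC25, of the kinetochore, and MAD2L1, of the spindle checkpoint. The hepatocyte markers summed to 54500 to 62800 CPM with 6N and 61000 to 63600 with DMSO. The low end with 6N was library 2 alone (54460 CPM), with 62750 and 62440 CPM in libraries 1 and 3. The 14 markers of other cells summed to 291 to 313 against 348 to 364 CPM. The part of these markers in the result was not tested.

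**Figure D2:**
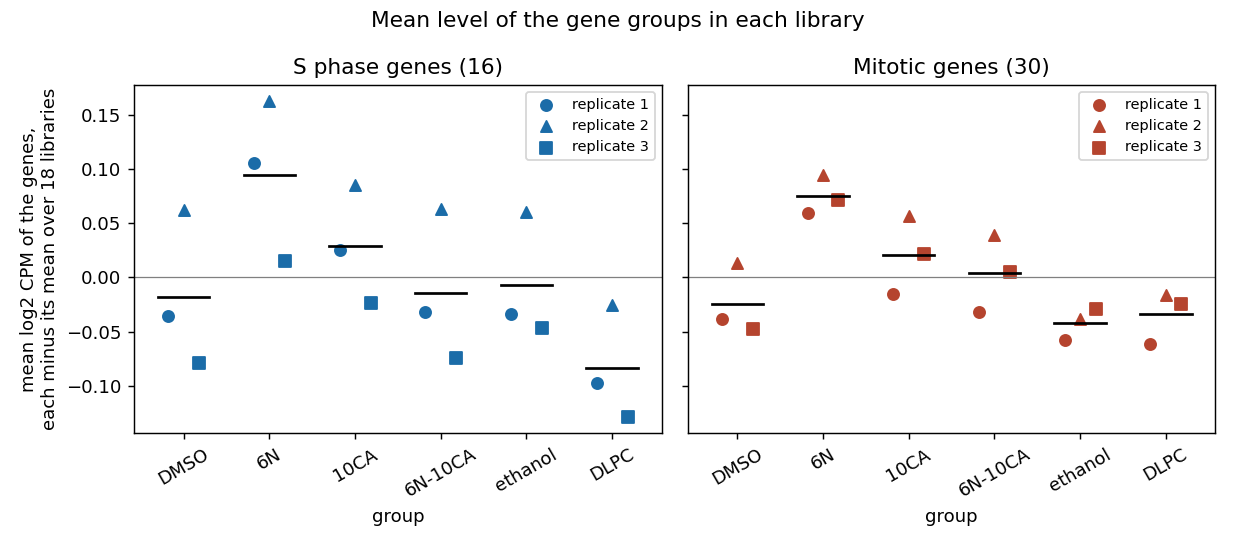
Mean of the S phase genes (left) and the mitotic genes (right) in each library, each gene taken as log2 CPM minus its mean over the 18 libraries, with bars for group means and symbols for the replicate number. The 6N group has the highest mean in both panels, and the library numbered 2 is the highest of its group everywhere but among the mitotic genes with ethanol.

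With 10CA, none of the 46 genes was called against DMSO in edgeR without or with the block, and 0% and 0.216% of all genes were called by these fits. Without the block DESeq2 and limma-voom called none, and with it DESeq2 called 1 and limma-voom 0. Without the block 8 members had an unadjusted p under 0.05, all higher, where 3.38% of all genes did. The median log2 fold change was 0.02 for the S phase genes and 0.03 for the mitotic genes. TOP2A had the smallest p, at 460, 479 and 490 CPM with 10CA and 435, 432 and 424 with DMSO. The TOP2A libraries did not overlap, and the log2 fold change was 0.15 ± 0.04 (SE), with an adjusted p of 0.649 in edgeR and 0.0771 with the block (0.0771 to 0.974 over 14 alternatives). CDK1 (log2 fold change 0.15) and the spindle motor KIF11 (0.16) were also higher in every 10CA library than in any DMSO library, without passing the test. CCNE2 was at 4.396, 3.90 and 3.35 CPM against 2.72, 3.15 and 2.13, a log2 fold change of 0.54 with a 95% interval of 0.12 to 0.97, and did not pass.

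With 6N-10CA, none of the members was called against DMSO without the block (0.264% of all genes were). DESeq2 and limma-voom called none, and 4 had an unadjusted p under 0.05 (9.91% of all genes did). With the block PLK1 alone was called, as lower, where 2.12% of all genes were. PLK1 was at 494, 487 and 492 CPM with 6N-10CA and at 519, 549 and 524 with DMSO. The groups did not overlap, and the log2 fold change was -0.11 ± 0.04 (SE), with an adjusted p of 0.283 in edgeR without the block and 0.0277 with it (0.0277 to 0.606 over 14 alternatives). Only the block passed among these alternatives. The PLK1 call did not survive leaving out DMSO libraries 1, 2 or 3 or 6N-10CA libraries 2 or 3, each of which left 0 members called. The medians were -0.01 for the S phase and 0.03 for the mitotic genes. The mitotic genes HMMR, CENPE and CENPF had log2 fold changes of 0.16, 0.19 and 0.12, on the other side of 0.

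**Figure D3:**
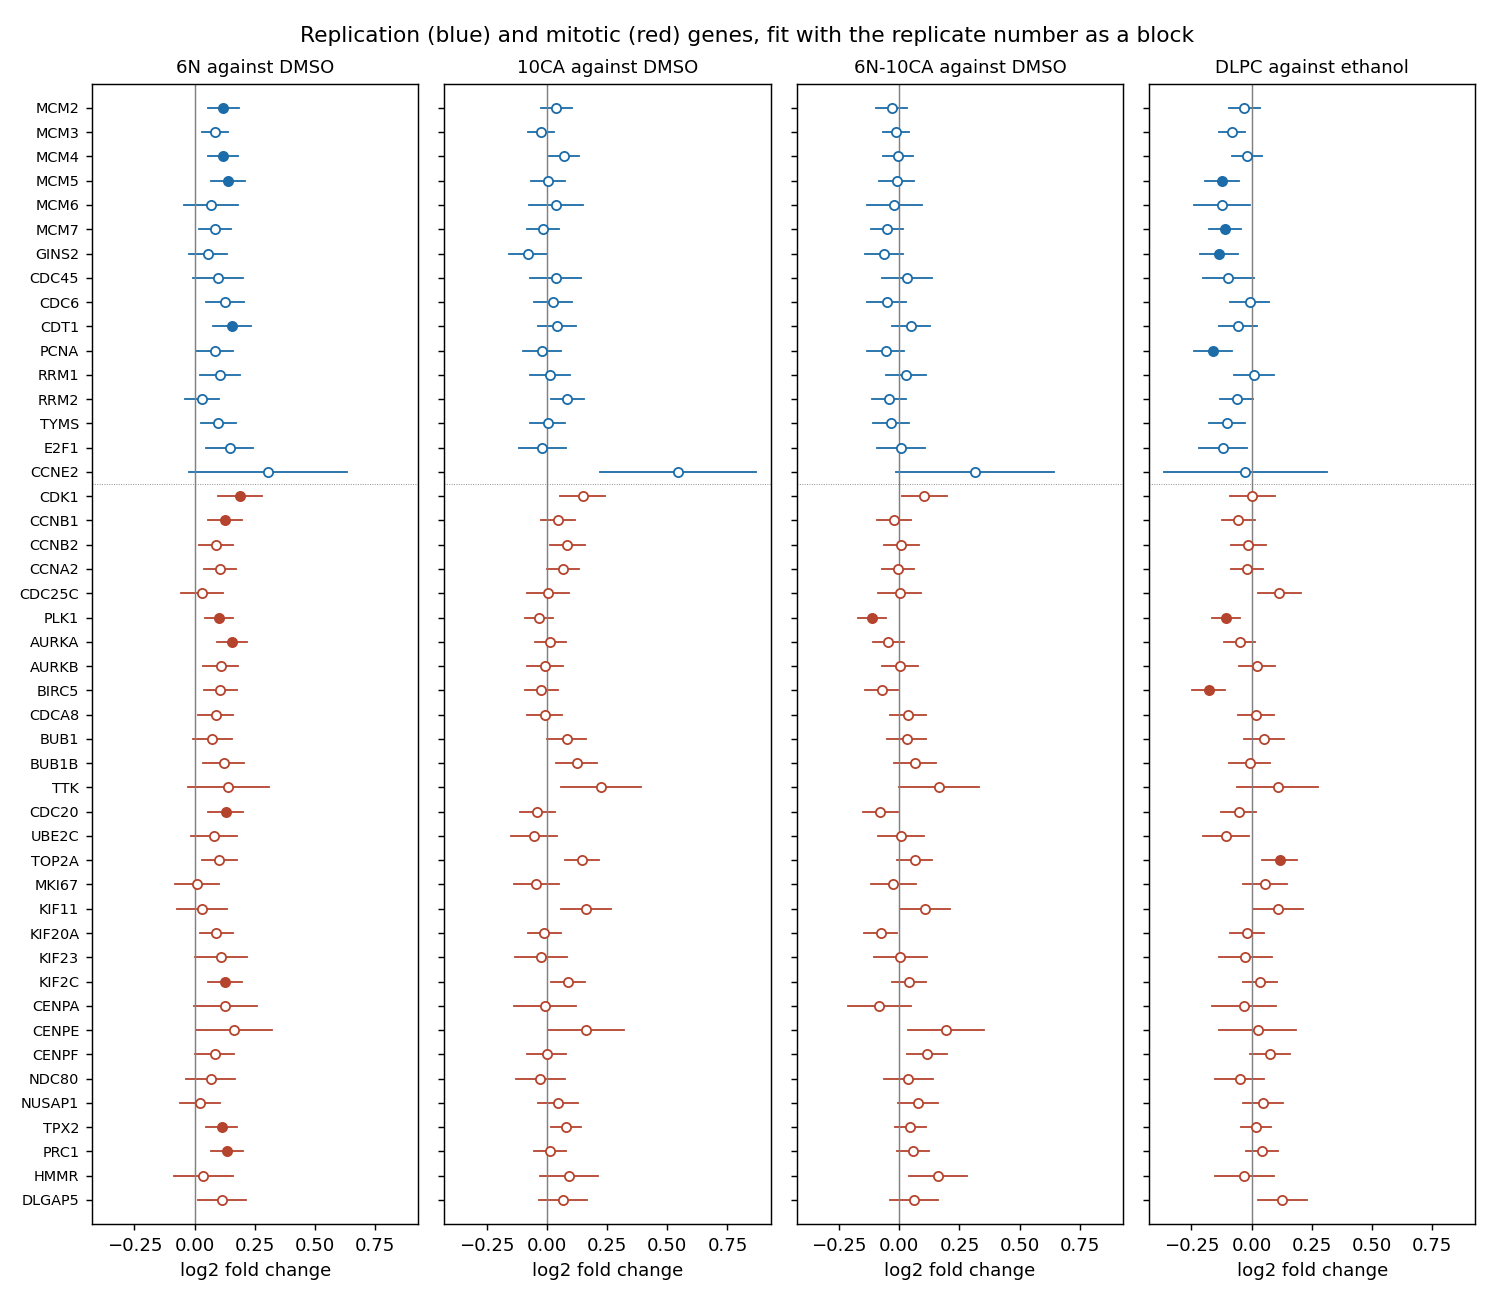
Log2 fold change of each gene against vehicle with its 95% interval, from the edgeR fit with the replicate number as a block, S phase genes in blue above the dotted line and mitotic genes in red, filled where the adjusted p is under 0.05. All 46 genes lie to the right of 0 with 6N, and the S phase genes lie mostly to the left with DLPC.

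With DLPC, the S phase genes had a median log2 fold change of -0.09 against ethanol, with 15 of 16 below 0, and the mitotic genes one of 0.01, with 14 of 30 below 0, where 50.3% of all genes were above 0. Whether the groups of genes differ was not tested. None of the members was called in edgeR without the block (1.04% of all genes were), while 7 had an unadjusted p under 0.05 (13% of all genes did), DESeq2 called 1 and limma-voom 0. With the block 7 were called, 6 lower (3.14% of all genes were) and 1 higher (3.6%). Without any 1 library of either group between 1 and 4 of the 46 were called.

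PCNA was the S phase gene with the largest difference. It was at 157, 165 and 159 CPM with DLPC and at 172, 182 and 182 with ethanol. The groups did not overlap, and the log2 fold change was -0.16 ± 0.06 (SE), with an adjusted p of 0.255 in edgeR without the block and 0.0128 with it (0.0128 to 0.522 over 14 alternatives). Only the block passed among these alternatives. The other S phase genes called lower with the block were MCM5 (159 ± 5.40 against 173 ± 6.98 CPM, mean ± SD, n = 3), MCM7 (429 ± 19.4 against 463 ± 19.8) and GINS2 (65.8 ± 4.67 against 72.1 ± 2.77), all of the replicative helicase. TYMS and E2F1 had log2 fold changes of -0.10 and -0.12 and did not pass. MCM2, of the same helicase, had one of -0.03 with a 95% interval of -0.13 to 0.07.

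Among the mitotic genes BIRC5, survivin of the chromosomal passenger complex, was at 261, 277 and 265 CPM with DLPC and at 294, 304 and 310 with ethanol. Every DLPC library of BIRC5 also lay below every library of the other 5 groups. Its log2 fold change was -0.18 ± 0.05 (SE), with an adjusted p of 0.0902 in edgeR without the block and 0.00199 with it (0.00199 to 0.315 over 14 alternatives). BIRC5 passed in 4 of the 14. The other 2 genes of that complex, AURKB and CDCA8, did not pass. PLK1 was called lower with the block, at 468, 507 and 481 CPM against 516, 526 and 525. TOP2A was called higher with it, at 469, 460 and 472 CPM against 430, 430 and 432, without overlap. CDK1 did not differ beyond its spread (110 ± 8.22 against 110 ± 7.40 CPM, mean ± SD, n = 3), nor did CCNB1 and MKI67.

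In the wider lists none of the 51 S phase or 54 mitotic genes was called between DLPC and ethanol without the block. With it 5 S phase genes were called, all lower, and 2 mitotic genes, ESPL1 (separase) higher and FAM64A, also named PIMREG, lower. Of all genes 3.14% were called lower and 3.6% higher by that fit, so the mitotic count does not exceed the background. Of 34 regulators of the cell cycle 6 were called lower and 1 higher with the block, among them E2F4 and PKMYT1, the inhibitory kinase of CDK1, both lower. Of 23 p53 targets, 4 were called lower with the block, among them PHLDA3 and AEN. The hepatocyte markers summed to 62900 to 67900 CPM with DLPC and 58600 to 65100 with ethanol, and the markers of other cells to 376 to 445 against 363 to 414 CPM, and their part in the result was not tested.

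The small molecules were also compared with each other at the same dose, in 3 pairs, with p-values adjusted over all genes in each. These pairs and the comparisons with DMSO share their libraries, so the values are not independent of those above. In 6N-10CA against 6N, PLK1 and CDC20 were called lower by edgeR without the block (0.514% of all genes were called lower). In the edgeR fit without the block no other member was called in any of the 8 comparisons, while DESeq2 without the block called 6 in this one. The shares of all genes called by DESeq2 or limma-voom are not given for any comparison here. Their counts of members therefore have no background beside them. PLK1 was at 494, 487 and 492 CPM with 6N-10CA and at 564, 583 and 561 with 6N, a gap wider than the spread of either group. Its log2 fold change was -0.21 ± 0.04 (SE), with a 95% interval of -0.29 to -0.14 and an adjusted p of 0.00291. It passed in all 6 fits that left out 1 library (adjusted p 0.00795 to 0.0197 in edgeR), and missed only in the fit on those 2 groups alone (adjusted p = 0.0815), out of 12 alternatives. CDC20 was at 250, 249 and 246 CPM against 285, 297 and 277. Its log2 fold change was -0.21 ± 0.05 (SE), with an adjusted p of 0.0268 in edgeR. CDC20 lost the call without 6N library 1 or 2 or any 1 of the 6N-10CA libraries (adjusted p up to 0.121 in edgeR), and in the fit on those 2 groups alone (0.108). It passed in 6 of its 12 alternatives.

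With the block 16 of the 46 were lower with 6N-10CA than with 6N, where 4.42% of all genes were, and 0 were higher. They were 8 of 16 S phase and 8 of 30 mitotic genes, and 10 to 18 were called without any 1 library, the fewest without 6N library 1. On the S phase side these were MCM2, MCM3, MCM4, MCM5 and MCM7, the loader CDC6, PCNA and TYMS. MCM2 was at 308, 324 and 302 CPM with 6N-10CA against 341, 361 and 334 with 6N, without overlap, a log2 fold change of -0.15 ± 0.05 (SE). On the mitotic side they were PLK1, CDC20, CCNB1, AURKA, BIRC5, CCNA2 (cyclin A2), KIF20A, a kinesin of cytokinesis, and CENPA, the histone variant of centromeres. AURKA was at 193, 213 and 210 CPM against 227, 247 and 234, a log2 fold change of -0.20 ± 0.06 (SE). Not all members followed: MKI67 (-0.03), TOP2A (-0.04) and CDK1 (-0.08) did not pass, with 95% intervals of -0.17 to 0.10, -0.13 to 0.05 and -0.21 to 0.04. CDCA3, a mitotic gene outside the 46, was called lower without the block too, at 63.8 ± 1.06 against 73.7 ± 2.57 CPM (mean ± SD, n = 3). FOXM1, the activator of mitotic genes, was at 107 ± 1.83 against 122 ± 5.23 CPM (mean ± SD, n = 3), with an adjusted p of 0.0976 in edgeR. All 10 hepatocyte markers had a log2 fold change above 0 in this comparison, and with the block 2 were called higher, TF (log2 fold change 0.29) and APOB (0.24). The shares of all genes above 0 or called higher are not given here, so these counts have no background beside them. The hepatocyte markers summed to 62200 to 67300 CPM with 6N-10CA and 54500 to 62800 with 6N, the low end being 6N library 2 alone. The 14 markers of other cells summed to 319 to 327 against 291 to 313 CPM, and of the 7 tested none was called. Their part in the result was not tested.

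**Figure D4:**
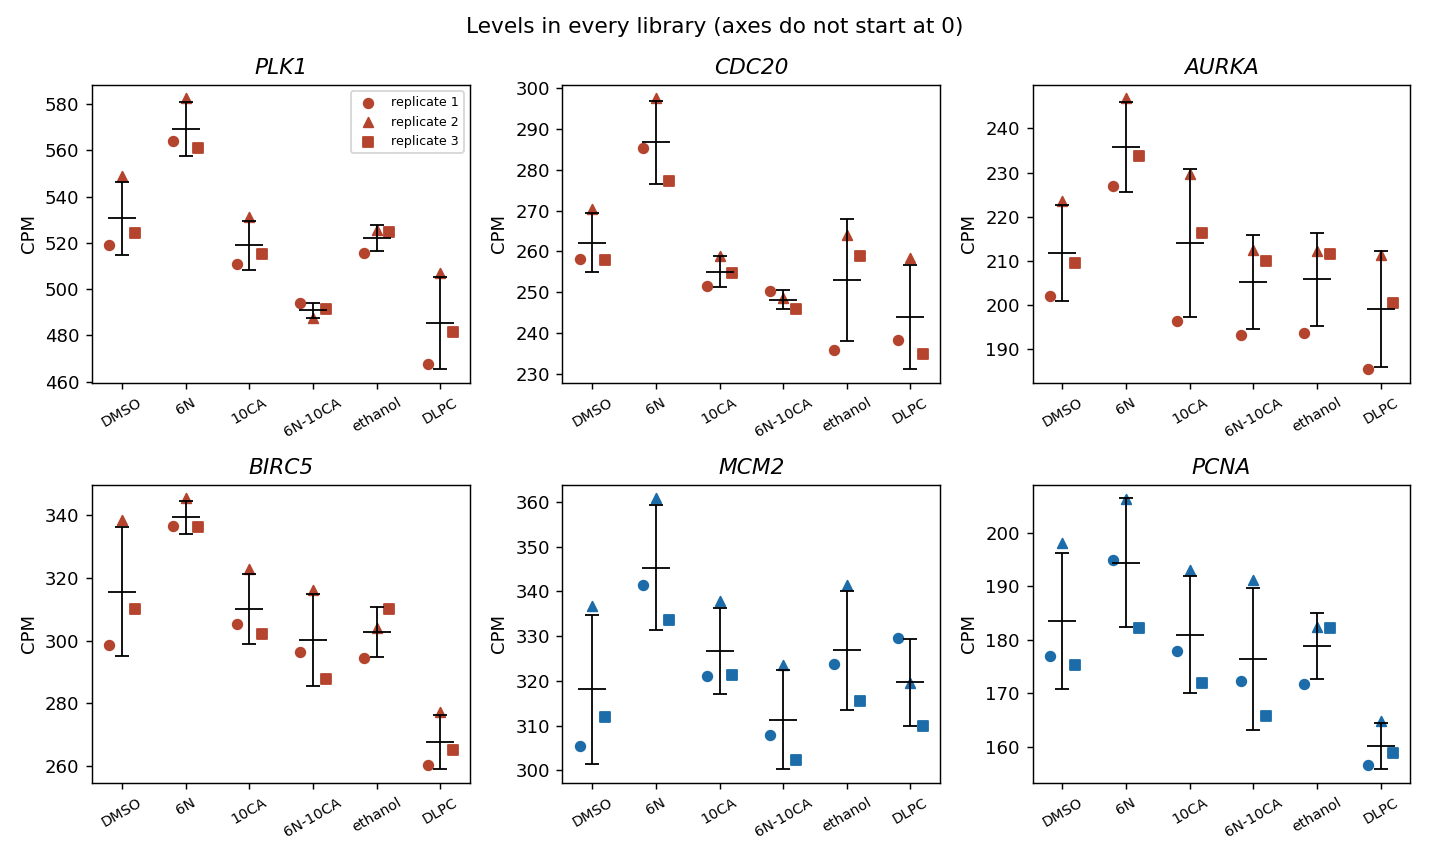
CPM of 4 mitotic genes (red) and 2 S phase genes (blue) in every library, symbols marking the replicate number, bars the group mean and whiskers 1 SD (n = 3), on axes that do not start at 0. PLK1 is highest with 6N (561 to 583 CPM), and BIRC5 and PCNA are lowest with DLPC (261 to 277 and 157 to 165 CPM).

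In 10CA against 6N the median log2 fold change was -0.10 for the S phase and -0.05 for the mitotic genes. None of the members was called without the block (1.71% of all genes were), 15 had an unadjusted p under 0.05, 14 of them lower (6.51% of all genes were), DESeq2 called 3 and limma-voom 0. With the block 9 were called, all lower (3.52% of all genes were): MCM3, MCM5, GINS2 and E2F1 of S phase and PLK1, AURKA, BIRC5, CDC20 and PRC1 of mitosis. The count was 5 without 6N library 1, 15 without 6N library 3 and 3 without 10CA library 3. CDC20 was at 252, 259 and 255 CPM with 10CA, below every 6N library, a log2 fold change of -0.17 ± 0.05 (SE) with an adjusted p of 0.0772 in edgeR. PLK1 was at 511, 531 and 515 CPM with 10CA, a log2 fold change of -0.13 with a 95% interval of -0.21 to -0.05. CDCA3 was called lower here as well, at 63.5 ± 2.75 CPM with 10CA (mean ± SD, n = 3). Of the 7 markers of other cells tested, LYZ (log2 fold change 0.32) and PDGFRB (0.62) were called higher by edgeR without the block and with it. Without the block 1.71% of all genes were called, in either direction. All 14 markers of other cells summed to 345 to 388 CPM with 10CA and 291 to 313 with 6N. Of the 10 hepatocyte markers TF (0.23) and APOB (0.22) were called higher with the block, for which the share of all genes called higher is not given here. The sum of the 10 was 60700 to 65200 against 54500 to 62800 CPM, the low end being 6N library 2 alone. The part of these markers in the result was not tested.

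Between 6N-10CA and 10CA none of the members was called without the block (0.23% of all genes were), 2 had an unadjusted p under 0.05 (8.4% of all genes did), and DESeq2 and limma-voom called none. With the block RRM2, the small subunit of ribonucleotide reductase, was called lower (0.96% of all genes were), with a log2 fold change of -0.13 and a 95% interval of -0.26 to 0.01 without the block. That call was lost without any 1 of the 6 libraries. The interval for PLK1 was -0.16 to -0.002 and that for CCNB1 -0.17 to 0.04, so a difference between these compounds is not shown to be absent.

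The replicate number went with the level of these genes across all 6 groups. In the edgeR F test of the replicate term 28 of the 46 were called (60.9%), where 28.2% of all genes were: 14 of 16 S phase genes and 14 of 30 mitotic genes. In every group the library numbered 2 had the highest mean of the S phase genes, and in 5 of 6 groups that of the mitotic genes. CDC6 showed it most: the libraries numbered 2 were at 77.7, 79.1, 76.7, 73.3, 73.5 and 75.3 CPM in DMSO, 6N, 10CA, 6N-10CA, ethanol and DLPC. Those numbered 1 were at 63.0, 69.2, 64.4, 60.2, 63.7 and 63.7 CPM. The library numbered 2 was the highest of its group in 6 of 6 groups, and the log2 difference from number 1 was 0.25 ± 0.03 (SE), larger than that of CDC6 in any comparison of treatments. MCM4 (0.16), AURKA (0.16), RRM1 (0.14), MCM5 (0.12) and PCNA (0.11) were also highest in library 2 of all 6 groups.

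Not all members shared that direction. CDT1, CDC25C, the phosphatase that activates CDK1, and AURKB were lower in the libraries numbered 2 than in those numbered 1, by -0.10, -0.12 and -0.12 on the log2 scale, and were called. CCNE2 was lowest in number 3 (-0.42 from number 1). PLK1 (adjusted p = 0.119), CDC20 (0.052) and PRC1 (0.734) were not called for the replicate number in edgeR. Without the libraries numbered 2 only 4 of the 46 were called, without those numbered 1 or 3 there were 15 and 20, and without the 10CA group 16. Genes of other lists moved with the number too. Of 23 p53 targets 19 were called, CDKN1A, the CDK inhibitor p21, by 0.34 and MDM2 by 0.30 in number 2 against number 1, and 7 of 10 hepatocyte markers were lower in number 2. What a replicate number stands for is not given in the labels, and its part in the result was not tested.

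**Figure D5:**
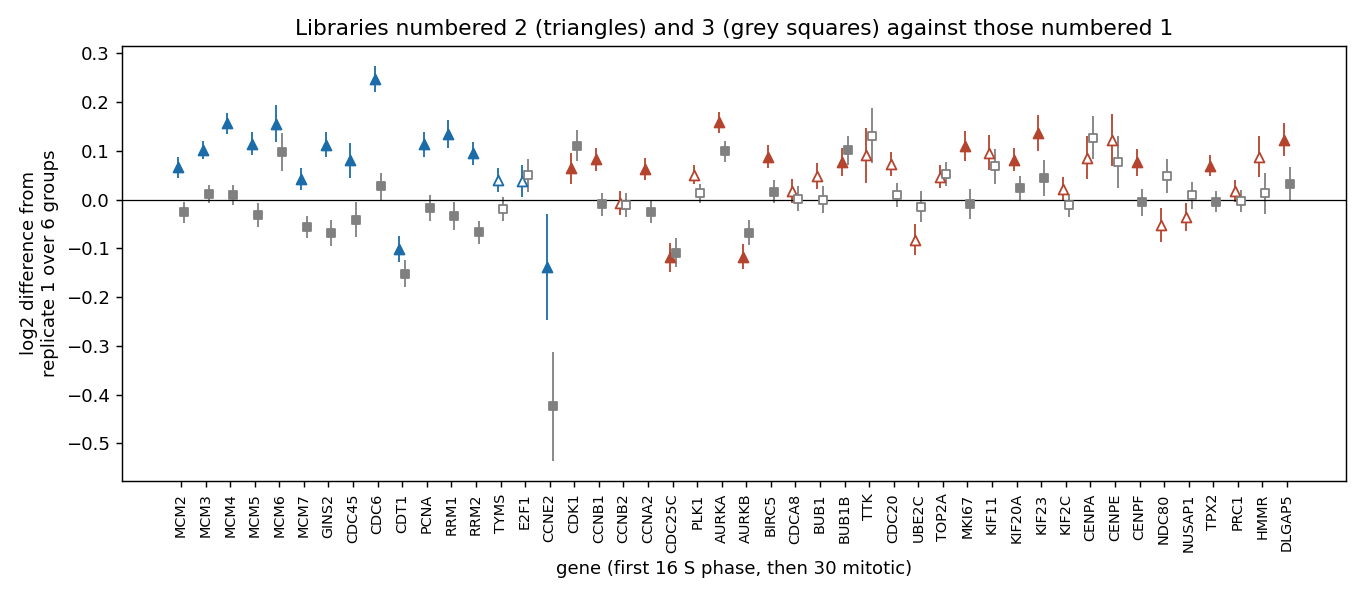
Log2 difference of the libraries numbered 2 (coloured triangles) and 3 (grey squares) from those numbered 1, fitted over all 6 groups, with SE, filled where the replicate term has an adjusted p under 0.05. CDC6 is the highest triangle (0.25), and CDT1, CCNE2, CDC25C and AURKB are the called genes below 0.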

How the data were processed

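A single table of raw whole-number counts, 1 row per gene symbol and 1 column for each of 18 HepG2 libraries, is what the authors deposited. The submitters' processing notes name GRCh38 and DESeq2. No aligner, counter, annotation or strandedness is named in the sources used here. Per the labels' protocols the libraries were Nextera XT preparations of amplified cDNA with single-end reads.

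Genes were kept by edgeR's filterByExpr (minimum count 10, total 15), which left 14797 genes with 99.96% of counts. All 18 libraries entered 1 fit (edgeR 4.0.16, R 4.3.3) with TMM scaling and a mean per group. The quasi-likelihood test was two-sided, with Benjamini-Hochberg adjustment over all genes and a threshold of 0.05. CPM are counts over the TMM-scaled library size. The biological coefficient of variation was 7.0%, and 4.4% with the replicate block. DESeq2 1.42.0 and limma 3.58.1 (voom) were alternatives. The fit without the block was tested on simulated data that had the same spread for all genes and no replicate effect. The blocked fit was not tested in this way. Within groups, replicate pairs had a chi-square of 4.48 to 13.67 per gene, so none was a copy. Floors cover counting error only, since amplified reads are not independent molecules.

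Replicate numbers come from the sample titles. The pairing check was first run over all 14797 genes, where it missed its minimum correlation of 0.1 (0.0045 to 0.18 in the 24 same-numbered pairs of the compared groups), and then at minimum levels of 1, 5 and 50 CPM. The level of 5 CPM was chosen after these were seen. Over those 10689 genes deviations from the group mean correlated at 0.18 to 0.59 in these pairs, and at -0.52 to 0.12 between different numbers. Deviations sum to 0 over the 3 libraries of a group, so the second range is tied to the first and is no separate support. At all 4 levels each of the 18 libraries correlated best with a library of its own number. The numbers were taken on this basis to pair the libraries, and the replicate block is given where it changes a call.

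The members and lists were chosen with earlier results of these data known. The rule for naming took every called member, the 5 S phase and 5 mitotic members with the smallest p in a comparison, 9 constant genes (CDK1, CCNB1, MKI67, TOP2A, PLK1, MCM2, PCNA, E2F1 and CCNE2), every called gene of the other lists or else the 2 with the smallest p, and for levels the 5 highest and 3 lowest. Some of the genes it names are given only within counts or are not reported here, and other members were chosen after their values were seen. Gene positions come from GENCODE release 29 and promoters from RefSeq (GRCh38.p14), matched by symbol.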

Additional observations from a re-analysis of the deposited data

How the results depend on the processing

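The differences lie near the width of the 95% intervals of single genes, and counts of called members depend on whether the replicate number enters the fit. With the replicate block in place of group means alone, the count went from 0 to 12 for 6N against DMSO, 0 to 1 for 6N-10CA against DMSO, 0 to 7 for DLPC against ethanol, 0 to 9 for 10CA against 6N, 2 to 16 for 6N-10CA against 6N and 0 to 1 for 6N-10CA against 10CA, and stayed at 0 in the other 2 comparisons. The block changed no call of the vehicles or of 10CA against DMSO. Without it, DESeq2 called 1 for 6N against DMSO, 1 for DLPC, 3 for 10CA against 6N and 6 for 6N-10CA against 6N, and the fit on only the groups compared called 0 in the last. Averaging both vehicles gave 1 for 6N and 1 for DLPC, and DMSO as vehicle 1 for DLPC. DESeq2 size factors, no filter and limma-voom kept every count of the fit without the block within 1.5 times. The shares of all genes called under these alternatives are not given here, so the counts of members have no background beside them.

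Alternatives to the blocked fit were chosen after seeing the data, as was the minimum of 5 CPM by which the numbers were taken as pairs. With it, both vehicles averaged gave 21 for 6N, 1 for 10CA and 2 for 6N-10CA, ethanol as vehicle 0 for 6N-10CA, and DESeq2 1 for 10CA. For these counts, and for those below with 1 library left out, the share of all genes called is not given either. Leaving out 1 library in the blocked fit gave 3 to 8 for 6N against DMSO (4, 6 and 3 without DMSO libraries 1, 2 and 3, and 3 and 4 without 6N libraries 1 and 2). It gave 0 to 1 for 10CA against DMSO (1 without DMSO library 1), 0 to 1 for 6N-10CA against DMSO, 0 for 6N-10CA against 10CA, and 10 to 18 for 6N-10CA against 6N. For 10CA against 6N it gave 3 to 15 (5 without 6N library 1, 15 without 6N library 3 and 3 without 10CA library 3). For DLPC it gave 1 to 4 (3, 4 and 1 without ethanol libraries 1, 2 and 3, and 1, 2 and 2 without DLPC libraries 1, 2 and 3). In the fit of group means, 6N-10CA against 6N had 1 to 2 members called with 1 library left out, and the median log2 fold change of the mitotic genes in 10CA against 6N ran from -0.0904 to -0.0521.

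For the replicate numbers the count of 28 became 16 without the 10CA group, and 4 to 20 when 1 number was left out, which removes 6 of the 18 libraries. The cause of these changes was not tested, beyond the fewer libraries in each such fit. Followed through the alternatives were 79 log2 fold changes, of members with an unadjusted p under 0.05 in edgeR or a call with the block. They were picked for lying away from 0, so their sign had little room to change and is no separate support. None of the 79 changed sign under the alternatives run. Of 16 medians of the gene groups 6 did, none far from 0: the S phase medians of 10CA and of 6N-10CA against DMSO, of 6N-10CA against 10CA and of the vehicles, and the mitotic medians of DLPC and of the vehicles. Their direction is not established.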
